A study of Homo sapiens with 6 samples.

Results

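The tripartite motif (TRIM) genes were followed in MDA-MB-231 cells depleted of SAM68. They were taken by symbol, as every locus of the deposited table with a symbol made of TRIM, a number and at most 1 further letter, whatever its values. This gave 71 of the 74852 loci listed, holding 72 TRIM symbols, since TRIM6 and TRIM34 shared a locus. Of these loci, 46 had a mean normalized read count of at least 10 over the libraries and were tested, among 18849 loci tested in all. MDA-MB-231 is a human breast cancer line of the triple-negative subtype (TNBC). There were 3 libraries of cells given 4 pooled control siRNAs (si-CTRL) and 3 of cells given 4 pooled siRNAs that target SAM68 (si-SAM68). RNA was taken 24 h after the second of 2 transfections according to the sample labels. The methods of the study count the harvest time from transfection and name another culture medium and RNA kit, and the labels were followed here. SAM68, encoded by KHDRBS1, is an RNA-binding protein that regulates splicing, and the comparison asks which genes differ in expression when it is depleted. Nothing in the labels says that the 3 libraries of a group came from separate cultures, so the p-values measure the spread between these libraries, which may be technical.

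TRIM proteins carry a RING finger, 1 or more B-boxes and a coiled coil, in this order, and most of them act as E3 ubiquitin ligases: the RING recruits an E2 enzyme loaded with ubiquitin, while the C-terminal domain selects the substrate. The domain at the C terminus divides the family into classes. PRY-SPRY proteins include many restriction and signalling factors of innate immunity, several of which are themselves induced by interferon. PHD-bromodomain proteins (the TIF1 class) act on chromatin, proteins with a COS box bind microtubules, and proteins with NHL repeats include RNA-binding and cytoskeletal regulators. Some members lack the RING and are not expected to act as ligases by it.

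The values are normalized read counts, the reads on a locus divided by the size factor of the library. The libraries held between 52625492 and 82568487 reads. Reads on the rRNA locus RNA45S5 made up 15.1% of si-SAM68 replicate 2 against 1.83% to 3.17% in the other libraries, and its part in the results was not tested. KHDRBS1 was at 14960.0 ± 620 (SD, n = 3) in si-CTRL and 618 ± 45.8 (SD, n = 3) in si-SAM68 cells, 4.13% of the si-CTRL mean, with a log2 fold change of -4.60 (limma adjusted p = 2.13e-09, SE 0.083). The MDA-MB-231 markers VIM, CD44, EGFR, CAV1 and AXL were present, with CAV1 called as higher in si-SAM68 cells (log2 fold change 0.62, limma adjusted p = 0.00101), whereas the 6 epithelial or luminal markers (CDH1, EPCAM, ESR1, PGR, ESRP1, CLDN3) and the 3 blood cell markers were under the minimum mean of 10.

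In these cells the TRIM family was broadly expressed, with TRIM28 far above the rest. Levels between genes were compared as normalized reads per kb of the longest annotated transcript, for 39 tested loci with a single host gene. TRIM28 (KAP1, the co-repressor of KRAB zinc finger proteins) was at 6372, 7204 and 7071 in the si-CTRL libraries and at 7011, 6263 and 6140.5 in the si-SAM68 libraries. TRIM37 (1576 in the si-CTRL mean), TRIM32 (1561), TRIM44 (1264) and TRIM65 (1063) followed per kb. TRIM37 and TRIM32 overlapped in their si-CTRL libraries, as did TRIM5, TRIM8 and TRIM4, so that their order was not resolved. At the low end were TRIM66 (11.0 per kb) and TRIM9 (8.48 per kb), the latter a neuronal ligase.

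**Figure D1:**
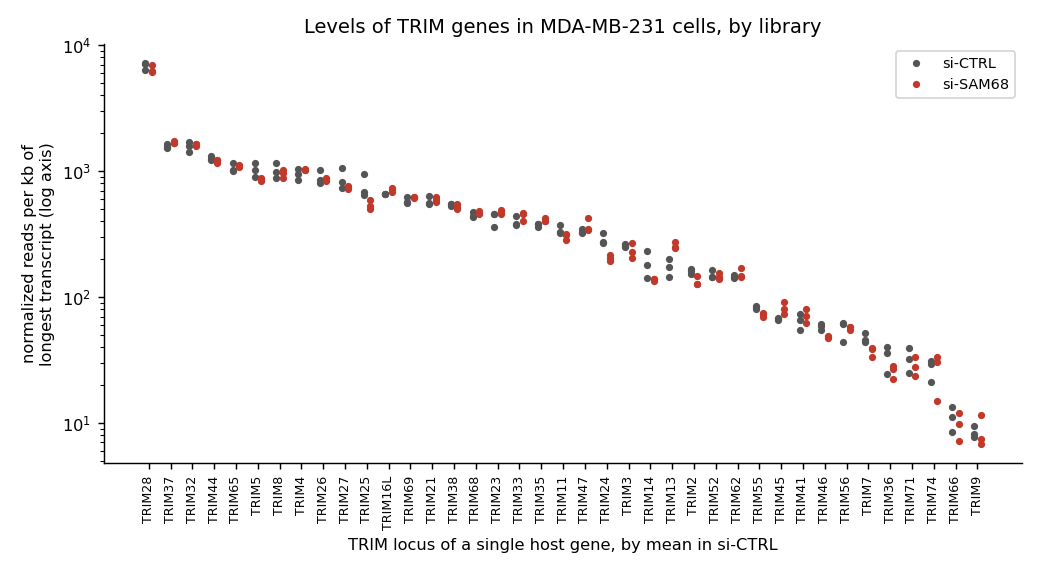
Normalized reads per kb of the longest transcript (log axis) of 39 TRIM loci with a single host gene, ordered by the si-CTRL mean, 1 point per library. TRIM28 stands above all others and TRIM66 and TRIM9 are lowest, while the grey (si-CTRL) and red (si-SAM68) points of most loci lie close together.

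The 25 TRIM loci under the minimum had means of at most 8.78 normalized reads (TRIM54, a muscle RING finger protein) and reached at most 11.1 in any library. TRIM15, TRIM29, TRIM40, TRIM42, TRIM43B, TRIM48, TRIM49, TRIM49C, TRIM51, TRIM60, TRIM64, TRIM64B, TRIM64C, TRIM67 and TRIM77 (15 loci) had no read in any library, which allows up to 3 reads per library, or 2.76 to 3.75 normalized reads, counting error only. The other untested loci were TRIM10, TRIM17, TRIM31, TRIM43, TRIM49B, TRIM50, TRIM54, TRIM61, TRIM63 and TRIM72. Many of these genes are near-identical copies, as in the TRIM49 and TRIM64 groups, and reads that fit several copies may have been lost or shared in counting.

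In limma no TRIM locus passed the thresholds of the study, an unadjusted p-value of at most 0.05 together with a fold change of at least 1.5. The study made its own calls at these thresholds with another analysis, and these were not compared here. Over all loci tested, limma called 7.67% by this rule, 2.83% as higher and 4.83% as lower in si-SAM68 cells. An unadjusted p-value of at most 0.05 was found in limma for 8 of the 46 TRIM loci (17.4%), beside 27.0% of all loci, and edgeR and DESeq2 on the recovered reads also called 0. After Benjamini-Hochberg adjustment over all loci tested, limma gave 3 TRIM loci an adjusted p under 0.05: TRIM24 fell, and TRIM13 and the joint TRIM6/TRIM34 locus rose. That is 6.52% of the tested TRIM loci, beside 10.7% of all loci (4.47% higher and 6.23% lower). The log2 fold changes of the family ran from -0.53 to 0.58, with 21 loci above and 25 below 0 and a median of -0.04, against 0.01 over all loci. The median absolute log2 fold change was 0.14 for TRIM loci and 0.19 for all loci. In bulk RNA a change in every cell and a change in some of the cells cannot be told apart.

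For most members the libraries leave little room for a large change. In 35 of the 46 loci the 95% confidence interval of the fold change lay within 1.5-fold in both directions. It reached past 1.5-fold lower for 8 loci (TRIM22, TRIM24, TRIM25, TRIM14, TRIM36, TRIM7, TRIM66 and TRIM9), past 1.5-fold higher for TRIM13 and TRIM6/TRIM34, and past both for TRIM74, which had few reads. Absolute log2 fold changes were under 0.2 in 33 loci and at least 0.3 in 8. The groups did not overlap in 18 TRIM loci (39.1%), 6 higher and 12 lower in si-SAM68 cells, beside 33.9% of all loci.

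**Figure D2:**
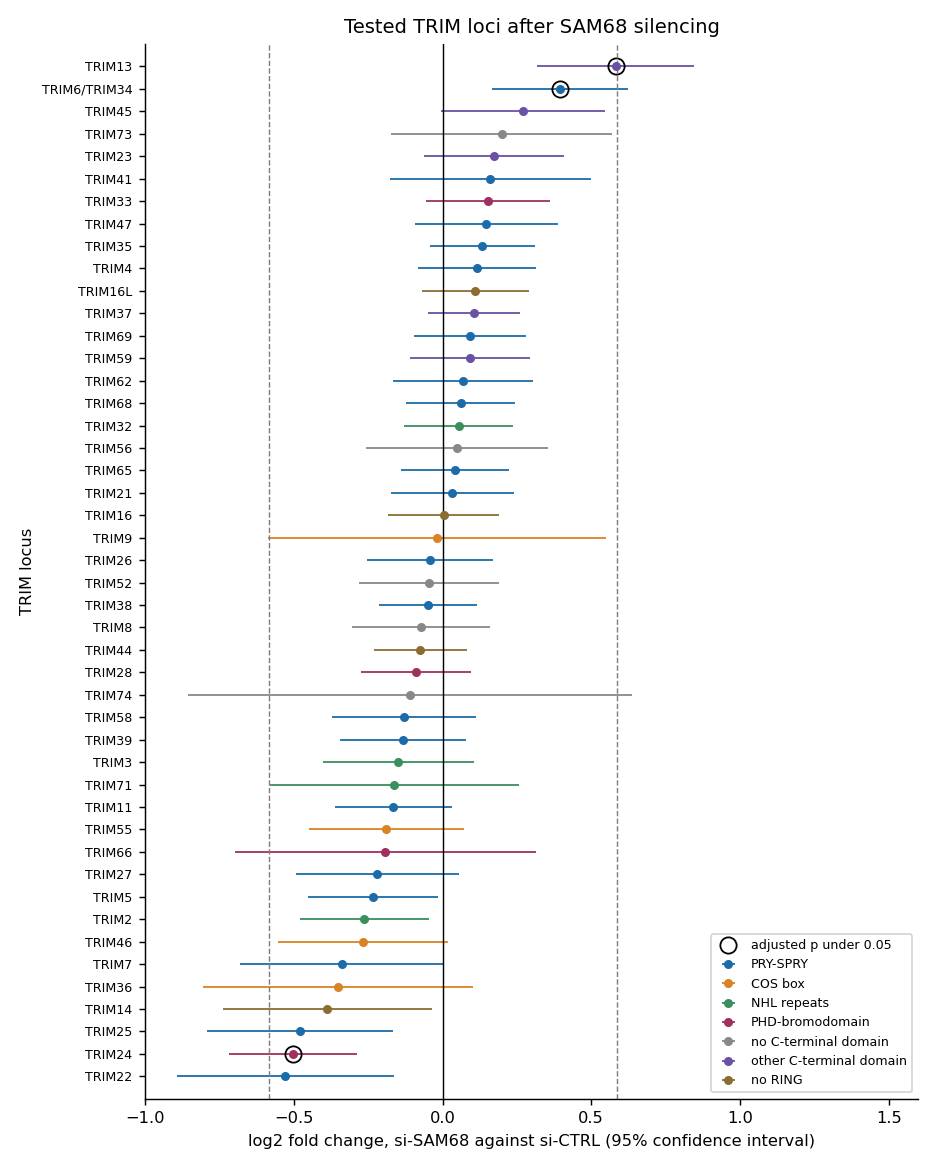
Log2 fold change of si-SAM68 against si-CTRL cells for the 46 tested TRIM loci with 95% confidence intervals from limma, coloured by domain class, with dashed lines at 1.5-fold. TRIM13 and TRIM24 lie near opposite ends at 0.58 and -0.50, circled with TRIM6/TRIM34 for an adjusted p under 0.05, and no point lies past a dashed line.

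TRIM24, TRIM28, TRIM33 and TRIM66 form the TIF1 class, which carries a PHD finger and a bromodomain. TRIM24 (locus GSHG0027766, hg19 chromosome 7, 138144951 to 138270333) is a co-regulator of nuclear receptors and a ligase for p53. In the si-CTRL libraries, in the order of their replicate numbers here and throughout, it had 2729.6, 2241 and 2319 normalized reads, against 1621, 1701 and 1807 in the si-SAM68 libraries. Every si-SAM68 library was below every si-CTRL library. The means were 2429.8 ± 262.5 and 1709.7 ± 93.6 (SD, n = 3), and TRIM24 fell by 0.50 on the log2 scale (limma adjusted p = 0.0118, SE 0.096). The adjusted p was 0.0542 without si-SAM68 replicate 1, 0.0515 without si-SAM68 replicate 2 and 0.0564 without the trend in limma, while TRIM24 passed under the other 14 of 17 alternatives (range 9.92e-05 to 0.0564). The DGKI locus overlaps 63.7% of the span of TRIM24, with a mean of 125 normalized reads and a log2 fold change of 0.08.

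The other TIF1 genes did not pass. TRIM33, which ubiquitinates SMAD4 in TGF-beta signalling, was at 3659.5, 3147 and 3093 in si-CTRL and at 3362, 3842 and 3789 in si-SAM68 cells, with overlapping groups and a log2 fold change of 0.15 (limma adjusted p = 0.324). TRIM28 had a log2 fold change of -0.09 (95% interval -0.28 to 0.10), and the little-expressed TRIM66 one of -0.19 (95% interval -0.70 to 0.32). Whether TRIM24 differed from its paralogs in its response was not tested. None of the 12 tested partners of this class, such as SETDB1, the HP1 proteins, histone deacetylases and SMADs, was called or had an adjusted p under 0.05 in limma, while 2 (16.7%) had an unadjusted p of at most 0.05. Their median log2 fold change was 0.04.

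TRIM13 belongs to the members whose C terminus carries another kind of domain, here a transmembrane anchor, and it resides in the ER, where it takes part in degradation of ER proteins and in autophagy. The locus (GSHG0132631, chromosome 13, 50571143 to 50592603) was at 1052, 1247 and 1446 normalized reads in the si-CTRL libraries and at 1795, 1785.5 and 1988 in the si-SAM68 libraries. The lowest si-SAM68 library stood above the highest si-CTRL library. From 1249 ± 197 to 1856 ± 114 (SD, n = 3), TRIM13 rose 1.497-fold, just under the fold threshold of 1.5, with a log2 fold change of 0.58 (limma adjusted p = 0.0147, SE 0.118). It was the largest log2 fold change among the tested TRIM loci. TRIM13 lost its adjusted call without si-SAM68 replicate 1 (0.0521), without si-SAM68 replicate 3 (0.0852) and without the trend in limma (0.06655), and passed under 14 of 17 alternatives (range 0.000129 to 0.0852). Its span lies wholly within the DLEU2 locus, which holds MIR15A. DLEU2 had a mean of 1320.0 normalized reads and a log2 fold change of -0.03 (SE 0.105), and the difference between both loci was not tested.

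The remaining members with other C-terminal domains were TRIM45 (0.27), TRIM23 (0.17), TRIM37 (0.11) and TRIM59 (0.09, lowest of the class), given as log2 fold changes. All 5 of the class were above 0 and the groups did not overlap in 3 of them (60%, beside 33.9% of all loci), although only TRIM13 passed the adjusted threshold. The class joins unlike domains, and a shared direction was not tested. The TRIM59 locus also holds IFT80, and a read on it may come from either gene. TRIM45, a filamin-domain protein, was at 232, 240.2 and 237 in si-CTRL and 318, 258 and 284 in si-SAM68 cells (limma adjusted p = 0.192), without overlap. TRIM37, a MATH-domain ligase linked to centrosomes, was at 7102, 6726 and 6640.4 against 7254, 7241 and 7523, also without overlap, with a 95% interval of the log2 fold change of -0.05 to 0.26.

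**Figure D3:**
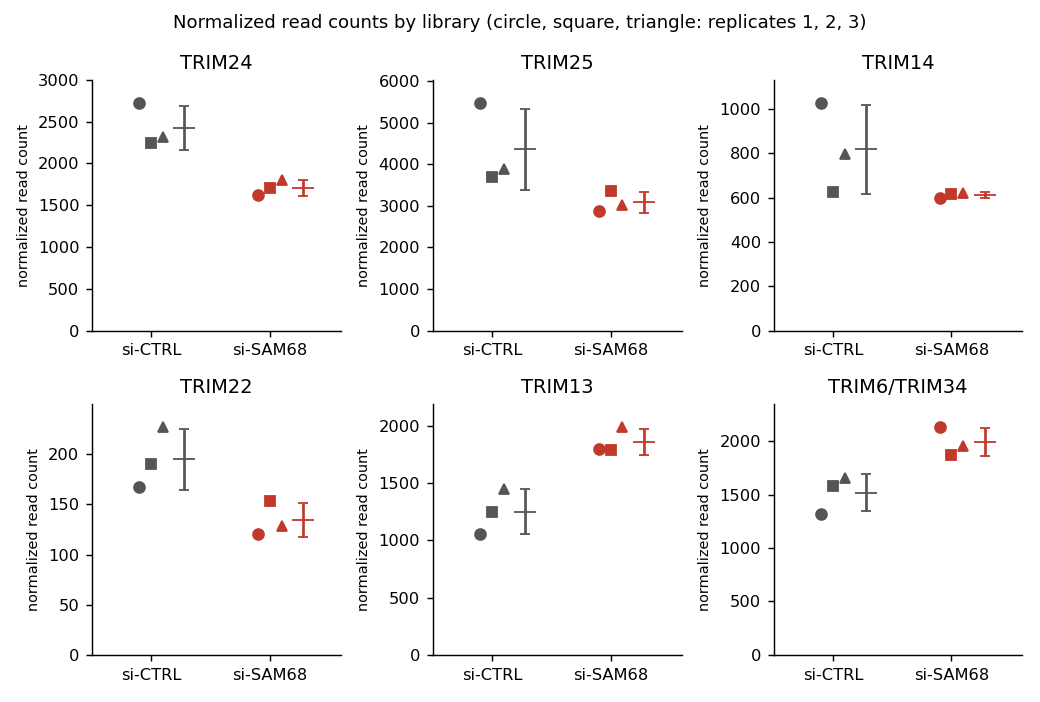
Normalized read counts of 6 TRIM loci in each library (circle, square and triangle for replicates 1, 2 and 3) with the mean and SD beside them, on axes that start at 0. The groups do not overlap in any of the 6 loci, and si-CTRL replicate 1 is the highest point of TRIM25 and TRIM14.

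A list of 11 TRIM symbols with antiviral or innate immune roles was chosen, and 10 of these could be tested, at 9 loci. The list may not hold every TRIM gene with such a role, and counts over it depend on this choice. Since several TRIM genes are induced by interferon, promoter windows (from 250 bases before to 50 after the start in RefSeq, GRCh38.p14) were searched for the core of an interferon-stimulated response element, TTTC, any 2 bases, then TTTC, on both strands. Windows were given for 56 of the 72 TRIM symbols, 75 windows in all. TRIM22, TRIM13 and TRIM24 were among the symbols without a window and were not searched. The core was found in 10 of 75 TRIM windows (13.3%), each of another gene, and in 3.57% of all 35116 windows. With 1 base between the blocks, a spacing added after the first search had been seen, the shares were 6.67% and 3.12%. TRIM2, TRIM16, TRIM44, TRIM64C and TRIM69, which are not on the antiviral list, also held a match with 2 bases between the blocks. So did TRIM64C and TRIM66, also not on the list, with 1 base. For TRIM6, TRIM31 and TRIM38, of the list, no match was found or no window was given. The windows below are those of every listed antiviral member in which a match was found, 1 window for each gene. They are shown in the direction of the gene, with the match in capitals.

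TRIM14 (chr9:98119214-98119273, minus strand, match starting 26 bases before the start): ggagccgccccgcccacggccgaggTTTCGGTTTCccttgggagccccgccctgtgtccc
TRIM5 (chr11:5685067-5685126, minus strand, 27 bases before the start): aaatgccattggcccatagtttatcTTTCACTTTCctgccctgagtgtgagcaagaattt
TRIM34 (chr11:5624886-5624945, plus strand, 90 bases before the start): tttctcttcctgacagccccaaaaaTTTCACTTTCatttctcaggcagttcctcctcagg
TRIM26 (chr6:30213566-30213625, minus strand, 194 bases before the start, with a second match 188 bases before): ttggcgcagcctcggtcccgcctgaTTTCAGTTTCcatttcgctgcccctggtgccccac
TRIM21 (chr11:4393653-4393710, minus strand, within the first bases after the start): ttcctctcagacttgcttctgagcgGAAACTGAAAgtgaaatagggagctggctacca
TRIM25 (chr17:56914019-56914077, minus strand, spacing of 1 base, 3 bases before the start): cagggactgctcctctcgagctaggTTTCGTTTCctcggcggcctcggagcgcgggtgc
TRIM56 (chr7:101085463-101085521, plus strand, spacing of 1 base, within the first bases after the start): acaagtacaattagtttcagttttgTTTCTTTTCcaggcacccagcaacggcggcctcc

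TRIM14, TRIM5, TRIM34 and TRIM26 held TTTC blocks that read in the direction of the gene, while TRIM21 held the same element on the other strand (GAAA blocks). TRIM21 also held a second match, and TRIM34 one with 1 base between the blocks. Each overlaps the match in capitals and is not marked separately. For the 5 genes with 2 bases between the blocks, the log2 fold changes were -0.39 for TRIM14, -0.23 for TRIM5, 0.39 for the locus of TRIM34, -0.04 for TRIM26 and 0.03 for TRIM21. The log2 fold changes of the genes matched only with 1 base between the blocks were -0.48 for TRIM25 and 0.05 for TRIM56. A match is a description of the sequence and does not show that a factor was bound.

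Among the listed antiviral members, the joint locus of TRIM6 and TRIM34 was the only one to pass the adjusted threshold. TRIM6 makes free ubiquitin chains that activate IKK-epsilon in interferon signalling, and TRIM34 is a paralog of TRIM5 with activity against retroviral capsids. The locus (GSHG0033159, chromosome 11, 5617331 to 5665623) also includes their readthrough transcript, and a read on it may come from either gene. It was at 1322, 1577 and 1650.35 normalized reads in si-CTRL and at 2133, 1874 and 1958 in si-SAM68 cells, without overlap. The log2 fold change was 0.39 (limma adjusted p = 0.0384, SE 0.103). With the replicate number as a block the adjusted p was 0.0664. The call was lost also without si-CTRL replicate 2 (0.0585), without si-SAM68 replicates 1 (0.127), 2 (0.0864) or 3 (0.125), without a filter (0.0553) and without the trend (0.107), so that 10 of 17 alternatives kept it (range 0.00646 to 0.127).

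TRIM22, TRIM25, TRIM14 and TRIM5 had lower values in si-SAM68 cells, each with an unadjusted p of at most 0.05 and none with an adjusted p under 0.05. With TRIM6/TRIM34, which rose, 5 of the 9 listed loci (55.6%) had an unadjusted p of at most 0.05 in limma, beside 27.0% of all loci. TRIM22, an interferon-induced restriction factor, had a log2 fold change of -0.53 (limma adjusted p = 0.0677, SE 0.164). Its values were 167, 189.8 and 227 in si-CTRL and 121, 154 and 128 in si-SAM68 cells, close to each other for 154 and 167 but without overlap. TRIM22 shares its locus with the olfactory receptor OR56B1 and lies wholly within the span of the TRIM5 locus, which had a mean of 2989.5 normalized reads, so that its reads are uncertain where strand and transcript were not separated. TRIM22 passed without si-CTRL replicate 1 (0.0270) and in DESeq2 (0.0454), and its adjusted p ranged from 0.0270 to 0.206 over the alternatives.

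TRIM25, which modifies the RNA sensor RIG-I with ubiquitin, was at 5483, 3695 and 3883 in si-CTRL and 2864, 3364 and 3016 in si-SAM68 cells. All si-SAM68 libraries were lower, but si-CTRL replicate 1 stood well above the other controls. The log2 fold change was -0.48 (limma adjusted p = 0.0570, SE 0.140), and -0.30 without si-CTRL replicate 1, with a smaller spread and an adjusted p of 0.0258. Without si-CTRL replicate 2 it was 0.0348, and TRIM25 passed under 5 of 17 alternatives (range 0.0060 to 0.189). TRIM14, a RING-less adaptor of the mitochondrial antiviral complex, was at 1029.9, 628 and 797 against 598, 615 and 623 (log2 fold change -0.39, limma adjusted p = 0.147). Its lowest control and its highest si-SAM68 library were 628 and 623, so that the groups nearly touched, and without si-CTRL replicate 2 the adjusted p was 0.0306 (range 0.0306 to 0.301). Without si-CTRL replicate 1 the log2 fold change of TRIM14 was -0.21 (adjusted p 0.245). TRIM5, the capsid-binding restriction factor, was at 3641, 2842 and 3234 against 2639, 2766 and 2815 (log2 fold change -0.23, limma adjusted p = 0.158), and its log2 fold change was -0.15 without si-CTRL replicate 1.

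The other tested members of the antiviral list showed differences that were within the spread of the libraries. TRIM21, the cytosolic Fc receptor, was at 1212, 1056 and 1079.95 in si-CTRL and 1204, 1087 and 1129 in si-SAM68 cells. TRIM38 had a log2 fold change of -0.05 (95% interval -0.21 to 0.11), TRIM26 of -0.04 (-0.26 to 0.17) and TRIM56 of 0.05 (-0.26 to 0.36). TRIM31 was under the minimum, with at most 9.07 normalized reads in a library. Over the 9 loci of the list, 3 were above and 6 below 0 with a median of -0.05, and the groups did not overlap in 5 (55.6%, beside 33.9% of all loci). The direction therefore was not shared by the listed antiviral members.

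Genes of the interferon pathway were set beside them. Of 32 interferon-stimulated genes listed, 29 were found and 28 tested. MX1 and MX2, dynamin-like GTPases that block viruses, were called as lower, and the other 26 were not called, so that 7.14% of the list was called beside 7.67% of all loci. MX1 fell from 5849.5 ± 1102 to 3568 ± 441 (SD, n = 3) normalized reads, a log2 fold change of -0.70 (limma adjusted p = 0.0147). MX2 had the same log2 fold change of -0.70 (limma adjusted p = 0.0296, 0.0521 with the replicate block). Without si-SAM68 replicate 1 or 3 the adjusted p was 0.0694 or 0.0778 for MX1 and 0.110 or 0.108 for MX2, and without si-CTRL replicate 3 it was 0.0877 for MX2. Without the trend it was 0.0788 for MX1 and 0.103 for MX2. With each library left out both log2 fold changes lay between -0.90 and -0.577. The weakest, -0.577 for MX2, was under 1.5-fold, so that its call was lost there. The list had 8 genes above and 20 below 0 and a median log2 fold change of -0.11, beside 0.01 over all loci. In the list of nucleic acid sensing and interferon signalling (17 of 18 found, 16 tested) no gene was called by limma, and 7 (43.8%) had an unadjusted p of at most 0.05, beside 27.0% of all loci. The only one with an adjusted p under 0.05 was STAT2, named after its value was seen, which transmits the interferon signal (log2 fold change -0.40, limma adjusted p = 0.0421). STAT2 passed under 10 of 17 alternatives and lost its call without si-CTRL replicate 3 or any 1 si-SAM68 library (0.0789 to 0.1599), without a filter (0.0619), under quantile normalization (0.0553) and without the trend (0.0867). The interferon gene IFNB1 was under the minimum mean, at 1.90 to 4.999 normalized reads in si-CTRL and 6.44 to 11.2 in si-SAM68 cells.

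**Figure D4:**
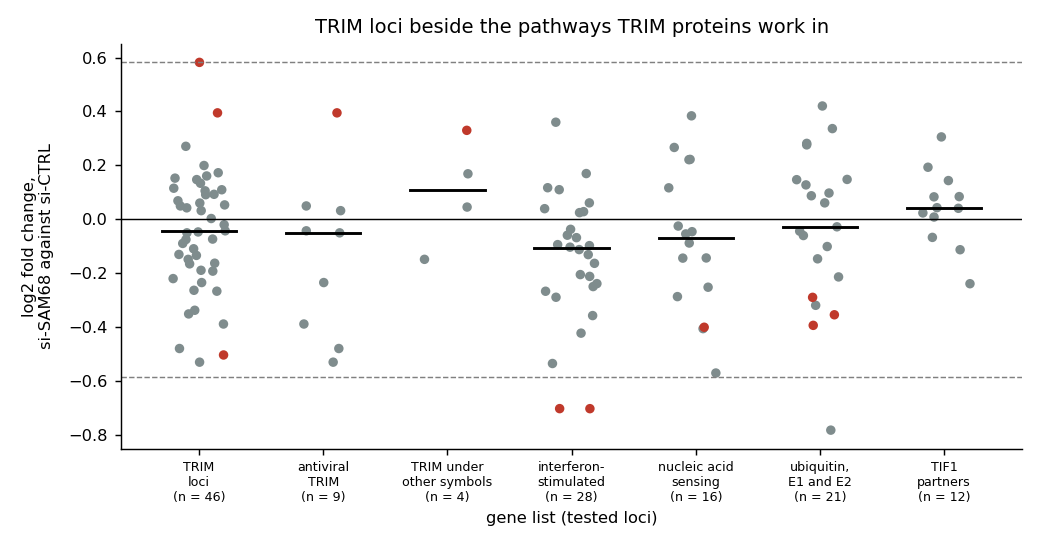
Log2 fold change of si-SAM68 against si-CTRL cells for tested loci of the TRIM family and 6 other lists, with the list medians as black bars, red points for an adjusted p under 0.05 and dashed lines at 1.5-fold. TRIM loci stay within the dashed lines, MX1 and MX2 at -0.70 and UBE2E2 at -0.78 lie below them, and the medians of the lists lie between -0.11 and 0.11.

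Proteins with a COS box associate with microtubules. All 4 tested members had values below 0, and none passed either threshold. TRIM36 was at 104, 152 and 169 in si-CTRL and 94.7, 119 and 114 in si-SAM68 cells (log2 fold change -0.35, limma adjusted p = 0.3), with overlapping groups, and its log2 fold change was -0.56 without si-CTRL replicate 1 and -0.21 without si-CTRL replicate 3. TRIM46, which organises microtubules of the axon initial segment, was at 175, 188 and 194 against 155, 157 and 149.7, without overlap (log2 fold change -0.27, limma adjusted p = 0.216). TRIM46 lies wholly within the spans of SLC50A1 and SHC1, and SLC50A1 itself had a log2 fold change of -0.71 (limma adjusted p = 0.00166). TRIM55, a muscle RING finger protein, had a log2 fold change of -0.19 (95% interval -0.45 to 0.07), and TRIM9 of -0.02 (-0.59 to 0.55). No class-wide test was made.

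MID1 and MID2 also carry a COS box but have another symbol, and they were listed apart with PML, TRIML1, TRIML2 and MEFV, relatives of the family that the symbol rule does not reach. The rule also misses the locus of TRIM49D1 and TRIM49D2, which had no read in any library. MID1, which links microtubules to degradation of the phosphatase PP2A and is mutated in Opitz syndrome, was at 2255, 2189 and 1908 in si-CTRL and 2582, 2761 and 2625 in si-SAM68 cells, without overlap. MID1 rose by a log2 fold change of 0.33 (limma adjusted p = 0.0414, SE 0.088). Its adjusted p was 0.0546 with the replicate block and 0.0686 to 0.166 when si-CTRL replicate 2 or 3 or any si-SAM68 library was left out, 0.0596 without a filter and 0.106 without the trend, and 9 of 17 alternatives kept the call (range 0.00914 to 0.166). MID2 had a log2 fold change of 0.05, TRIML2 of 0.17 and PML, the organiser of nuclear bodies, of -0.15, with adjusted p of 0.333 or more in limma. MEFV and TRIML1 were under the minimum.

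Among the 4 NHL proteins, TRIM2, a ligase for neurofilament light chain, was at 1129, 1082 and 1031 in si-CTRL and 852, 998 and 856 in si-SAM68 cells, without overlap. Its log2 fold change was -0.26 (limma adjusted p = 0.116, SE 0.097, 0.0975 to 0.312 under the alternatives). TRIM3 (-0.15), TRIM32 (0.05) and TRIM71 (-0.16), the last a let-7 target of stem cells, had overlapping groups.

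The 20 tested loci of genes with a RING and a PRY-SPRY domain were evenly divided, with 10 above and 10 below 0, and ran from TRIM22 (-0.53) to TRIM6/TRIM34 (0.39). TRIM7 (-0.34) came after TRIM22 and TRIM25 in this class and did not pass (limma adjusted p = 0.192). Within the 5 tested loci without a C-terminal domain, the log2 fold changes lay between -0.11 (TRIM74) and 0.20 (TRIM73), 2 near-identical copies whose reads are uncertain. The TRIM73 locus also holds NSUN5P1. The 4 tested members without a RING ran from TRIM14 (-0.39) to TRIM16L (0.11), a copy of part of TRIM16 (0.00). The TRIM16 locus also holds CDRT1.

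The enzymes upstream of the TRIM ligases were also measured. Of 21 tested ubiquitin genes, E1 enzymes and E2 enzymes, UBE2E2 alone was called (log2 fold change -0.78, limma adjusted p = 0.0921), 4.76% of the list beside 7.67% of all loci. Its log2 fold change was -0.58 on leaving out si-CTRL replicate 1, and -0.55 on leaving out si-SAM68 replicate 1, both under 1.5-fold, so that the call was lost in each. UBE2N, UBE2E1 and UBE2G2, named after their values were seen, had an adjusted p under 0.05 and all fell. They were 14.3% of the list, beside 10.7% of all loci. UBE2N, the E2 that builds K63-linked chains with RING ligases, went from 13649.5 ± 676 to 10398 ± 614 normalized reads (SD, n = 3), with a log2 fold change of -0.39 (limma adjusted p = 0.0128). UBE2E1 (-0.35) and UBE2G2 (-0.29) had adjusted p of 0.0245 and 0.0423 in limma. UBE2G2 was at 0.06145 with the replicate block, and UBE2N, UBE2E1 and UBE2G2 passed under 13, 12 and 9 of 17 alternatives. With single libraries left out the adjusted p rose to at most 0.0676 for UBE2N, 0.109 for UBE2E1 and 0.1896 for UBE2G2, and the adjusted call of all 3 was lost on leaving out si-SAM68 replicate 1, si-SAM68 replicate 2 or si-CTRL replicate 3, that of UBE2E1 and UBE2G2 also on leaving out si-SAM68 replicate 3, and that of UBE2G2 on leaving out si-CTRL replicate 2. The E2 enzymes of the UBE2D group, general partners of RING ligases, had log2 fold changes of 0.13 to 0.28 and did not pass.

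TRIM genes lie in groups along the genome (hg19). On the short arm of chromosome 11, from 4406127 to 8693413, 7 TRIM loci were found and tested, 3 above and 4 below 0, including TRIM6/TRIM34 (0.39) next to TRIM5 (-0.23) and TRIM22 (-0.53). On chromosome 6, from 25962917 to 30314637, 8 loci were found, of which TRIM38, TRIM27, TRIM26 and TRIM39 were tested and lay between -0.22 and -0.04. A second group on chromosome 11, from 89443467 to 89775193, held 5 loci taken by the symbol rule, and none reached the minimum. Neighbours therefore did not share 1 direction on chromosome 11. In 19 of the 46 tested loci another locus with a mean of at least 10 overlapped the span, and for these the reads may rest on how the counting used strand. The overlap was of whole spans and could be slight. It covered 0.466% of the span for TRIM66 and 0.721% for TRIM2, but 100% for TRIM22 and TRIM13.

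The libraries did not contribute evenly. Of the 46 TRIM loci, si-CTRL replicate 1 was the highest library in 15 (32.6%, and in 27.5% of all loci) and the lowest in 11 (23.9%, and 28.3%). The library si-SAM68 replicate 1 was the lowest in 14 TRIM loci (30.4%), beside 15.4% of all loci. si-SAM68 replicate 2, with its high rRNA share, was the lowest in 2 and the highest in 6.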

How the data were processed

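The authors deposited 1 table of the series, whose values are a signal: reads on each FAST DB locus (hg19) divided by a DESeq2 size factor. The submitters' processing notes name STAR 2.4.0, SAMtools, Picard, FastQC and DESeq2, and the counting program and strand setting are not given in the sources used here. All values (100% of each library) were whole multiples of 1 step within a tolerance of 0.01, and the reads were recovered by dividing by it. Samples were grouped by their labels. Groups were compared with limma (version 3.58.1, R 4.3.3; lmFit and a trended eBayes) on log2(value + 1) for loci with a mean of at least 10, a scale that understates fold changes of genes with few reads, with Benjamini-Hochberg adjustment over the 18849 loci tested. Calls follow the thresholds of the study (unadjusted p of at most 0.05 and fold change of at least 1.5) or an adjusted p under 0.05. The members and gene lists were chosen with earlier results of these data known.

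Genes named are TRIM loci past either threshold and all tested loci of the antiviral list, the TIF1, NHL and COS classes and relatives under other symbols. The highest and lowest of each other class, KHDRBS1, and listed pathway genes past the call thresholds were also named. Others, such as TRIM45 or STAT2, were named after their values were seen. Transcript lengths are those of the longest protein-coding GENCODE transcript. Libraries of the same replicate number deviated together (correlations 0.105, 0.231 and 0.125, against -0.125 to 0.007 between different numbers). Deviations from a group mean cancel out within the group, so these correlations are not independent of each other. The labels do not say what libraries of the same number share. The main fit did not pair the libraries, and its p-values, SE and intervals leave a pairing out. Only the replicate block, among the alternatives, pairs them by number. Replicates of a group differed by at least 12.6 times the sampling variance (chi-square per degree of freedom). As alternatives, the pseudocount was set to 0.1 or 5 and the minimum mean to 50 or none, and the fits were repeated with TMM and quantile scaling, eBayes without a trend or robust, a replicate block, each library left out, edgeR 4.0.16, DESeq2 1.42.0, a fold change of 2 and single-symbol loci. The fits were tested on simulated counts. Intervals and limits from counts cover counting error only.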

Additional observations from a re-analysis of the deposited data

How the results depend on the processing

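No TRIM locus was called under pseudocounts of 0.1 and 5, a minimum mean of 50, TMM scaling, either other eBayes setting, the replicate block, edgeR, DESeq2, a fold change of 2 or single-symbol loci. TRIM13 was called (1 locus) under quantile normalization, and TRIM10, with at most 2.23 normalized reads in a library, (1 locus) without a filter. Of all loci tested, 7.6% were called under quantile normalization and 6.71% without a filter. Leaving out 1 library gave 0 to 2 called TRIM loci: TRIM22 without si-CTRL replicate 1, TRIM13 and TRIM25 without si-CTRL replicate 2, TRIM13 without si-CTRL replicate 3 or si-SAM68 replicate 1, and TRIM13 and TRIM22 without si-SAM68 replicate 2. The share of all loci called in these fits ran from 6.9% to 9.71%. The TRIM loci with an adjusted p under 0.05 numbered 0 without the trend in limma and 5 in DESeq2 (TRIM22 and TRIM25 besides the 3). Of all loci, 4.77% passed without the trend and 14.8% in DESeq2, beside 10.7% in the main fit. With 1 library left out 0 to 5 TRIM loci passed (0 without si-SAM68 replicate 1, 1 without si-SAM68 replicate 2 or 3, 5 without si-CTRL replicate 1). The shares of all loci were 4.9%, 4.29% and 3.32% without si-SAM68 replicates 1, 2 and 3, and 15.1% without si-CTRL replicate 1. Under the replicate block 2 TRIM loci passed, TRIM13 and TRIM24, beside 9% of all loci, and the block changed no TRIM call other than that of TRIM6/TRIM34. The cause of these changes was not tested. The loci called over the whole table were 1445, or 2240 without a filter, which tests more loci, and 428 at a fold change of 2. In the pathway lists 3 genes were called, and 2 to 7 with 1 library left out (7 without si-CTRL replicate 2).

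The direction turned for the loci named next. TRIM9 was at 0.0009 under quantile normalization, 0.029 in edgeR and 0.0264 in DESeq2, and TRIM16 at -0.0018 under quantile normalization. With 1 library left out the log2 fold change ran from -0.32 to 0.25 for TRIM74, -0.16 to 0.0296 for TRIM8, -0.0913 to 0.0178 for TRIM52, -0.11 to 0.0548 for TRIM26, -0.25 to 0.13 for TRIM9, -0.0498 to 0.0376 for TRIM16, -0.0075 to 0.0933 for TRIM21, -0.11 to 0.14 for TRIM56, -0.0142 to 0.11 for TRIM32, -0.0065 to 0.11 for TRIM62 and -0.0262 to 0.16 for MID2. The precision is limited by 3 libraries in each group.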
